A study of Mus musculus with 17 samples.

Results

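Lungs of Balb/c mice that had been given ovalbumin and an isotype antibody were compared with lungs of mice that had been given saline, across all measured genes. Samples were chosen by their titles, 5 arrays of isotype mice and 6 of saline mice out of 17 arrays in the series, and 19751 genes entered the comparison on each array. The series concerns blockade of the hub of neogenin, RGMb and BMPs in allergic airways. The comparison of isotype with saline mice shows how mice exposed under a control antibody differed from saline mice. Saline mice received saline at sensitization and at challenge, isotype mice received ovalbumin at both steps, and all lungs were taken at the same time point of the treatment. Each array held total RNA of the lung of 1 mouse, and the mice were separately numbered animals. Experiment 1 held saline mice 1, 2 and 3 and isotype mice 1, 2 and 3. Experiment 2 held saline mice 1-2, 2-2 and 3-2 and isotype mice 1-2 and 2-2. The labels name no antibody for saline mice, so ovalbumin and the isotype antibody cannot be told apart as the source of a difference. Age, sex, dose and hours after the last challenge are not given in the sources used here.

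Ovalbumin, the main protein of hen egg white, is a harmless protein to which mice can be made allergic, and inhaled challenge then draws eosinophils, T helper 2 cells and monocytes into the airways. The type 2 cytokines IL-4 and IL-13 act on epithelium and macrophages through the transcription factor Stat6, so that epithelial cells turn to mucus production and macrophages take on an alternatively activated state. Whole lung holds leukocytes beside endothelium, epithelium, fibroblasts and muscle, and RNA of the whole lung is a mixture of all of these.

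Values are given as array intensity on a linear scale, or as log2 differences of isotype from saline mice with their standard error (±) from a limma fit with a term for the experiment (6 saline and 5 isotype mice). A gene is said to have risen or fallen where the Benjamini-Hochberg adjusted p of that fit over all 19751 genes was under 0.05. Array medians lay near 120 in experiment 1 and between 365 and 386 in experiment 2, so intensities were compared only within an experiment. Lung markers were abundant on every array: surfactant protein C (Sftpc) read 10644 to 17055 and the club cell gene Scgb1a1 7689 to 16177. Xist read 1446 or more on all 11 arrays, while the Y-linked genes Eif2s3y and Uty read at most 14.8 and 25.2. No 2 arrays held identical values, and the lowest correlation between arrays of an experiment, across genes, was 0.975 in experiment 1 and 0.968 in experiment 2.

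Between isotype and saline mice 6653 genes differed. Of these 2791 were higher in isotype mice, 14.1% of all genes, and 3862 were lower, 19.6% of all genes. Rises were fewer and larger. The median rise was 0.45 log2 units and the median fall -0.35. At least a 2-fold difference was reached by 540 of the genes that rose (19.3%) and by 87 of those that fell (2.25%), at least 4-fold by 113 and 3, and at least 8-fold by 26 and 1. The median over all genes was -0.04. In 2320 genes (11.7% of all) every isotype mouse lay above every saline mouse of its own experiment, and in 2987 genes (15.1% of all) every isotype mouse lay below.

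**Figure D1:**
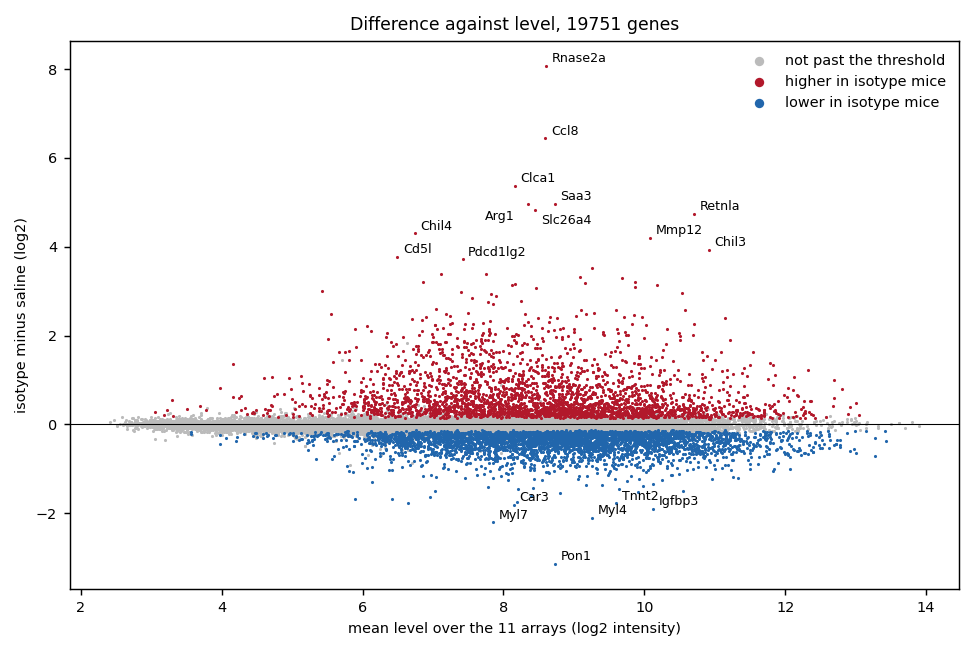
Each point is 1 of 19751 genes, with its mean level over the 11 arrays (log2 intensity) on the x axis and the log2 difference of isotype from saline mice on the y axis; red genes were higher and blue genes lower at an adjusted p under 0.05. The largest rises (Rnase2a at 8.08, Ccl8 at 6.44) reach farther from 0 than the largest fall (Pon1 at -3.14).

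Calls were spread unevenly over the range of levels. When genes were divided by mean level into 5 classes of equal size, 2.66% of the dimmest were higher and 2% lower, and of the brightest 19.1% were higher and 32.2% lower. Of 4310 genes below the lower quartile of the array in all 6 saline mice, 189 were higher in isotype mice. Rnase2a, Ccl8, Chil4, Cd5l and Pdcd1lg2 belong to these, so the size of their fold change rests on a saline level near the dim end of the array.

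The 2 experiments share no array. All 6653 genes past the threshold had the same sign in both experiments, which their choice by the fit over both experiments largely fixed. The differences of experiment 1 and experiment 2 correlated across genes with Pearson's r of 0.899 and Spearman's rho of 0.768, where genes are not independent replicates. Experiment 1 taken alone had 1655 genes higher and 1978 lower, experiment 2 had 2607 and 2920, and 3147 genes were past the threshold in both with the same sign and 1 with opposite signs.

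Differences were larger in experiment 2. The slope of each mouse's log2 difference from its own saline mean on the mean difference of the other experiment, over all genes, was 0.759, 0.744 and 0.576 in isotype mice 1, 2 and 3 and 1.16 and 1.18 in isotype mice 1-2 and 2-2. Saline mice, each taken from the mean of the other saline mice of its experiment, had slopes of -0.066 to 0.051. Slopes of the 2 experiments rest on different mean differences, so they do not compare the sizes of the experiments directly. More than 2-fold from the saline mean lay 575, 569 and 379 genes in isotype mice 1, 2 and 3, and 1043 and 983 in isotype mice 1-2 and 2-2. Isotype mouse 3 thus had the lowest count of the 5 and the lowest slope within experiment 1.

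**Figure D2:**
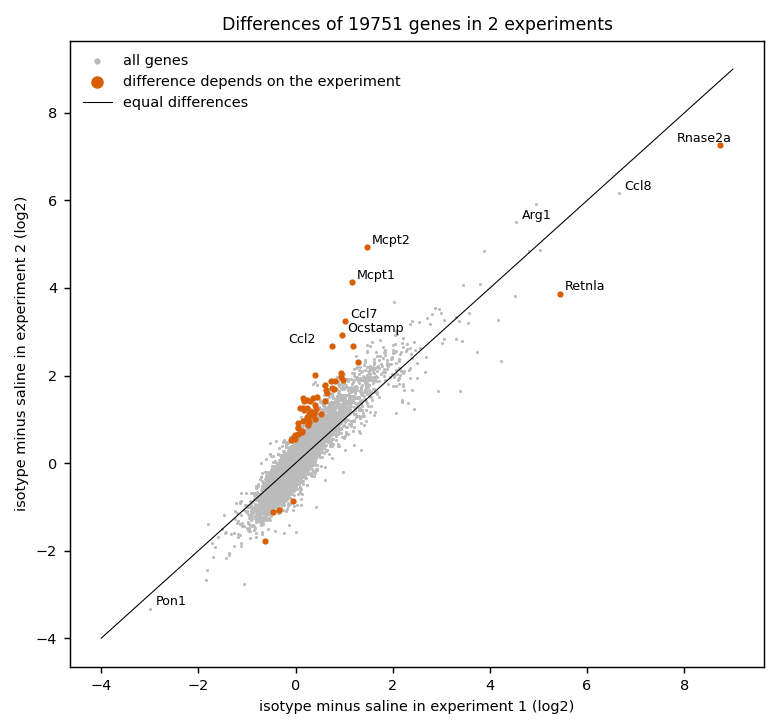
Each point is 1 of 19751 genes, with its log2 difference of isotype from saline mice in experiment 1 on the x axis and in experiment 2 on the y axis; the line marks equal differences and orange points are the 58 genes whose difference depended on the experiment. Most orange points lie above the line, while Rnase2a and Retnla lie below it.

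The difference itself depended on the experiment in 58 genes by the limma interaction (0.294% of all genes, adjusted p under 0.05), and 54 of these were also past the threshold of the comparison as a whole. The difference was larger in size in experiment 2 for 56 of them and larger in experiment 1 for Rnase2a and Retnla. Array medians differed between the experiments, and whether array scale had a part in these differences was not tested. The count of 58 genes moved with single mice. It was 361 without isotype mouse 1-2, 25 to 29 without saline mouse 2, 3, 1-2, 2-2 or 3-2, 32 without isotype mouse 3 and 36 without isotype mouse 2-2.

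Mucosal mast cell proteases and monocyte chemoattractants led the 58 genes. Mcpt2, a chymase of mucosal mast cells, read 12.6, 11.1 and 11.3 in saline mice and 27.8, 64.6 and 18.5 in isotype mice of experiment 1, against 25.1, 39.5 and 23.1 in saline mice and 747 and 1006 in isotype mice of experiment 2. The log2 difference was 1.46 in experiment 1 and 4.93 in experiment 2 (interaction 3.47, adjusted p = 0.026). Isotype mice lay above saline mice in both experiments without overlap. Mcpt1, its neighbour in the same protease family, differed by 1.15 and 4.13 (interaction 2.98, adjusted p = 0.0084).

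Ccl2, the monocyte chemoattractant that acts on Ccr2, read 76.6, 90.4 and 98.6 in saline mice and 158, 138 and 148 in isotype mice of experiment 1, and 226, 254 and 291 against 1393 and 1896 in experiment 2. Its differences were 0.74 and 2.67 (interaction 1.93, adjusted p = 0.0037). Ccl7, another ligand of Ccr2, differed by 1.02 and 3.24 (adjusted p = 0.0037). Ocstamp, which acts in the fusion of osteoclasts and macrophages, differed by 0.96 and 2.92 (adjusted p = 0.0087). These genes were higher in both experiments, and the size differed.

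The largest rise of all was that of Rnase2a on chromosome 14, a ribonuclease of the eosinophil-associated family. It read 14.0, 13.7 and 16.6 in saline mice and 7168, 6141 and 5645 in isotype mice of experiment 1, and 65.9, 62.5 and 82.9 against 11088 and 10337 in experiment 2. The log2 difference was 8.08 ± 0.23 (adjusted p = 2.7e-10), 8.74 in experiment 1 and 7.26 in experiment 2. Ccl8 on chromosome 11, a chemokine for Ccr8 and Ccr2 bearing cells, read 24.8, 32.4 and 30.8 against 3424, 3013 and 2482 in experiment 1, and 84.5, 116 and 94.6 against 7530 and 6504 in experiment 2. It rose by 6.44 ± 0.13 (adjusted p = 1.9e-11). In both genes the lowest isotype mouse exceeded the highest saline mouse of its experiment many times over.

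Clca1 on chromosome 3, a secreted protein of goblet cells, rose by 5.38 ± 0.62 (adjusted p = 2.8e-05), with a wide spread among exposed mice. It read 51.8, 34.7 and 29.7 in saline mice and 780, 6950 and 288 in isotype mice 1, 2 and 3, and 101, 86.4 and 60.8 against 3298 and 7257 in experiment 2. All isotype mice were above all saline mice, but isotype mouse 2 read far above isotype mice 1 and 3. Slc26a4 on chromosome 12, the epithelial anion exchanger pendrin, was even across exposed mice, with 1641, 1174 and 1181 against 27.3, 55.1 and 69.0 in experiment 1 and 3842 and 4113 against 140, 129 and 144 in experiment 2 (4.83 ± 0.19, adjusted p = 4.7e-09).

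Macrophage genes filled much of the rest of the top ranks. Arg1 on chromosome 10, the arginine-degrading enzyme of alternatively activated macrophages, read 42.8, 40.7 and 41.1 in saline mice and 1365, 1051 and 633 in isotype mice of experiment 1, and 145, 124 and 118 against 5479 and 6147 in experiment 2 (4.97 ± 0.20, adjusted p = 6.5e-09). Retnla on chromosome 16, a resistin-like secreted protein, read 231, 151 and 197 against 9188, 8003 and 7610, and 703, 800 and 937 against 11864 and 11602 (4.74 ± 0.25, adjusted p = 4.6e-08). The groups of each experiment did not overlap in either gene. Retnla differed by 5.43 in experiment 1 and 3.86 in experiment 2.

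Saa3 on chromosome 7, an acute phase protein made locally in inflamed tissue, read 57.6, 55.5 and 37.4 against 1887, 1643 and 1359, and 181, 204 and 157 against 4889 and 5649 (4.96 ± 0.12, adjusted p = 1.2e-10). Chil3, a chitinase-like lectin of macrophages, read 717, 557 and 585 against 8975, 8305 and 8448, and 602, 476 and 460 against 9469 and 7969 (3.93 ± 0.10). Its relative Chil4 rose by 4.30 ± 0.31 and the macrophage elastase gene Mmp12 on chromosome 9 rose 18.4-fold. All 4 were without overlap between the groups, and Chil4 had the widest spread of them, from 149 in isotype mouse 3 to 610 in isotype mouse 2 within experiment 1.

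The next 10 rises were between 3.18 and 3.77 log2 units: Cd5l, a secreted protein of tissue macrophages, Pdcd1lg2, the PD-1 ligand PD-L2, Alox15, the lipoxygenase of eosinophils and macrophages, the protease inhibitor gene Serpinb2, Jchain, the eotaxin gene Ccl11, the anaphylatoxin receptor gene C3ar1, Wfdc17, AA467197 and the metalloproteinase inhibitor gene Timp1. Jchain, which joins IgA and IgM into polymers, had the largest standard error of these 10 and was uneven between exposed mice: isotype mouse 1 read 2886 where isotype mice 2 and 3 read 303 and 316. It rose by 3.38 ± 0.56 (adjusted p = 0.00042), and its saline mice read 28.1 to 45.9 in experiment 1 and 134 to 285 in experiment 2, below 846 and 920 in the isotype mice.

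**Figure D3:**
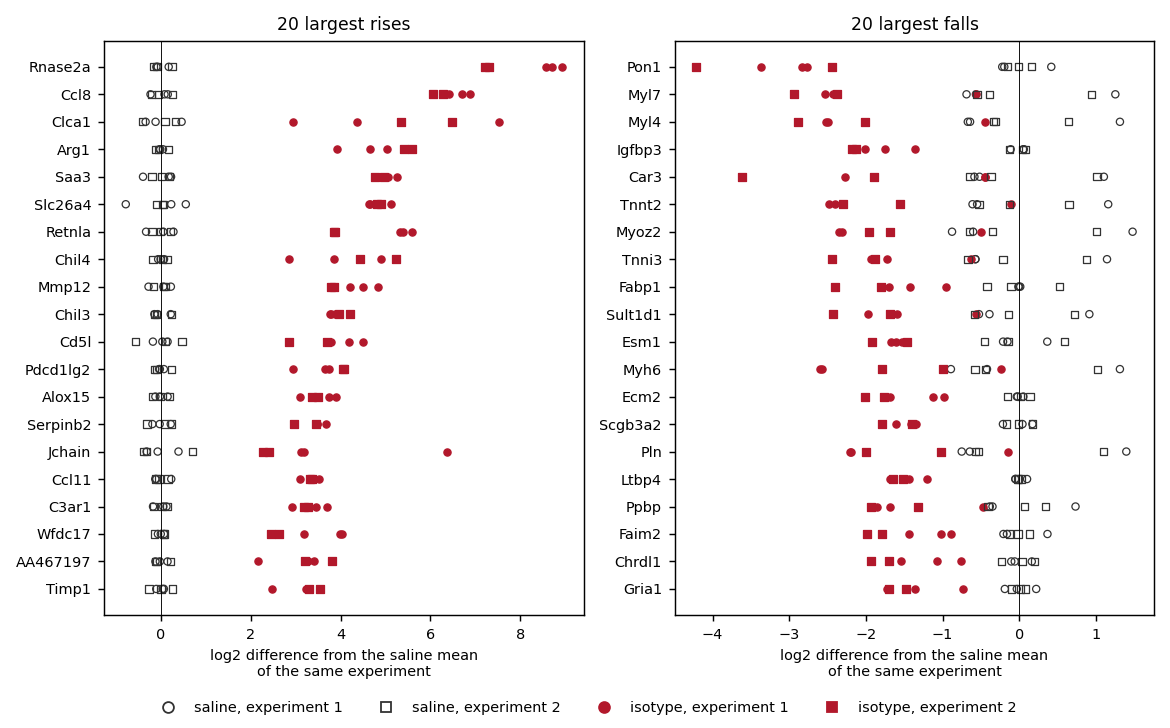
Each row is 1 of the 20 largest rises (left) or falls (right), and each mark is 1 mouse, placed at its log2 difference from the saline mean of its own experiment; open marks are saline mice, filled marks isotype mice, circles experiment 1 and squares experiment 2. The rises separate the groups in every row, whereas heart muscle genes among the falls (Myl7, Myl4, Tnnt2, Myoz2, Myh6, Pln) overlap through isotype mouse 2, and Car3 overlaps as well.

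Retnla, Pdcd1lg2 and Cd5l are named here because their promoters hold a match to a searched motif, and the stretches with it are printed. The palindrome TTCNNNNGAA, of the kind that Stat6 binds, was searched on both strands in the 250 bases before the start of each transcript (RefSeq, GRCm38.p6). It was found in 5.33% of 19018 windows of 15482 genes. Of the 20 largest rises 3 of 18 windows (16.7%) held it, and of the 20 largest falls 0 of 18. Chemokine ligands held it in 1 of 26 windows (3.85%) and DNA replication factors in 3 of 48 (6.25%). Kinesins held it in 0 of 37 windows and condensin and cohesin genes in 2 of 20. These counts are small and were not compared by a test. Such a match shows only that the letters are present, and binding of Stat6 was not tested. Capitals mark the match. The stretches are chr16:48842424-48842513 on the plus strand for Retnla, chr19:29410797-29410886 on the plus strand for Pdcd1lg2 and chr3:87357631-87357680 on the plus strand for Cd5l.
Retnla: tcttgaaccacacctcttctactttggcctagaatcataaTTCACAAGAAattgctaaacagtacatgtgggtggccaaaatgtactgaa
Pdcd1lg2: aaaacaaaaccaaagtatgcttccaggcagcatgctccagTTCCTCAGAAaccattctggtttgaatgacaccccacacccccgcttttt
Cd5l: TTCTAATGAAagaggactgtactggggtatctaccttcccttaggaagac
The match begins 145 bases before the start in Retnla, 82 in Pdcd1lg2 and 250 in Cd5l. Stat6 itself was at 0.02 ± 0.05 (adjusted p = 0.77), with 843 to 893 in the 6 mice of experiment 1 and 2588 to 2839 in the 5 of experiment 2.

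The largest fall was that of Pon1 on chromosome 6, the paraoxonase that hydrolyses lactones and oxidized lipids. It read 896, 575 and 586 in saline mice and 65.1, 98.5 and 94.3 in isotype mice of experiment 1, and 2121, 2395 and 1921 against 115 and 394 in experiment 2 (-3.14 ± 0.26, adjusted p = 1.6e-06). The highest isotype mouse lay far below the lowest saline mouse of each experiment. Igfbp3 on chromosome 11, which binds insulin-like growth factors, read 1057, 1190 and 1186 against 341, 282 and 447, and 4098, 3662 and 4225 against 882 and 913 (-1.90 ± 0.12, adjusted p = 1.5e-07). Fabp1 on chromosome 6, a fatty acid carrier, read 49.6, 49.9 and 50.4 against 18.6, 15.4 and 25.7, and 330, 213 and 171 against 43.4 and 65.7 (-1.69 ± 0.20, adjusted p = 3.4e-05).

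Genes of vessels and matrix came next among the falls. Esm1, a proteoglycan secreted by endothelial tip cells, read 156, 104 and 109 against 39.7, 37.8 and 41.8, and 604, 362 and 293 against 145 and 106 (-1.64 ± 0.17). Ltbp4 on chromosome 7, which anchors latent TGF-beta and helps assemble elastic fibres, read 1364, 1361 and 1514 against 437, 523 and 615, and 4642, 4488 and 4526 against 1457 and 1598 (-1.50 ± 0.08, adjusted p = 5.4e-08). Ecm2, a matrix protein, fell by 1.54 ± 0.14 on the log2 scale. In all 3 genes the groups did not overlap. The secretoglobin gene Scgb3a2 (-1.52), the BMP antagonist gene Chrdl1 (-1.44), the glutamate receptor gene Gria1 (-1.41), Faim2 (-1.46) and the platelet chemokine gene Ppbp (-1.47) were also among the 20 largest falls, without overlap.

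Genes of heart muscle made up 7 of the 20 largest falls, and they varied among saline mice as well. Myl7, the atrial myosin light chain, read 515, 146 and 134 in saline mice and 37.4, 146 and 40.1 in isotype mice of experiment 1, and 867, 2171 and 774 against 147 and 217 in experiment 2 (-2.21 ± 0.45, adjusted p = 0.002). Isotype mouse 2 read as high as saline mouse 2, so the groups overlapped. Of 12 measured heart muscle markers 9 were lower and 3 not past, and 3 were lower without overlap. Their mean log2 difference from the saline mean was 0.94, -0.49 and -0.45 in saline mice 1, 2 and 3, -0.40, 0.67 and -0.27 in saline mice 1-2, 2-2 and 3-2, and -1.55, -0.29, -1.60, -1.50 and -1.17 in isotype mice 1, 2, 3, 1-2 and 2-2. Leaving out 1 mouse at a time gave 6 to 10 lower markers, and the difference within experiment 1 gave 1. Saline mice 1 and 2-2 also read highest of the saline mice of their experiments for 5 other genes among the 20 largest falls: Pon1 (896 and 2395), Car3 (453 and 2720), Sult1d1 (150 and 487), Ppbp (1062 and 3646) and Scgb3a2 (2572 and 1103). Others of the 20 largest falls did not follow this order. In Igfbp3, Fabp1, Esm1 and Ltbp4 at least 1 of these 2 mice was not the highest saline mouse of its experiment. Whether heart tissue in the samples had a part in any of these falls was not tested.

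Families of immune signals held more genes that rose than fell, and each family below is to be read against the background of 14.1% higher and 19.6% lower among all genes. Of 36 chemokine ligands 25 were higher and 3 lower (median 0.63). Beside Ccl8 and Ccl11, Cxcl13, which draws B cells into follicles, rose by 3.15 ± 0.12 and Ccl9, a ligand of Ccr1, by 3.09 ± 0.11. The 3 that fell were Ppbp, Cx3cl1, the membrane-bound chemokine of endothelium (-0.94 ± 0.08, adjusted p = 2.6e-06), and Cxcl14 (-0.43 ± 0.07). With the dimmest 40% of genes left out 16 chemokine ligands were higher. Of 22 chemokine receptors 12 were higher and 5 lower (median 0.39). Ccr3, the eotaxin receptor of eosinophils, read 35.9, 58.2 and 57.3 against 493, 416 and 307, and 237, 199 and 200 against 1328 and 1519 (2.90 ± 0.15, adjusted p = 3.7e-08), without overlap. Ccr1 and Ccr2 both rose by 2.17, and Ccr9 by 1.28. Those that fell included the scavenging receptor genes Ackr4 (-0.82) and Ackr2 (-0.42), which take up chemokines without signalling, and Ccrl2 (-0.70). Without isotype mouse 1-2, 3 chemokine receptors were lower in place of 5.

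Cytokines and their receptors changed in part. Of 38 interleukin ligands 9 were higher and 5 lower (median 0.05), and of 36 interleukin receptor chains 17 were higher and 6 lower (median 0.20). Il1rn, which encodes the antagonist of the IL-1 receptor, read 145, 132 and 135 against 572, 579 and 355, and 458, 448 and 421 against 2643 and 2658 (2.17 ± 0.15, adjusted p = 4.5e-07). Il33 rose by 1.20 (adjusted p = 4.6e-07), Il4 by 1.08 (adjusted p = 0.00047) and Il21, a cytokine of follicular helper T cells, by 1.07 ± 0.16. Il13 (0.99, adjusted p = 6.3e-05) and Il5 (0.42, adjusted p = 0.017), named after their values were seen, were higher too. Il9 (-0.09) and Il25 (0.05) did not pass. Il18 fell by 1.12 ± 0.17 on the log2 scale (adjusted p = 0.00024), and its receptor chain gene Il18r1 by 0.62 ± 0.09. The gene of the other chain, Il18rap, named after its value was seen, rose by 0.46 ± 0.13 (adjusted p = 0.018). Among receptor chains Il2ra rose most (1.92, adjusted p = 1.5e-07). Il7r (1.47 ± 0.12), the decoy receptor gene Il13ra2 (1.35 ± 0.12) and Il5ra (1.34 ± 0.13), the receptor chain of eosinophils, were higher too. Of 28 TNF superfamily receptors 15 were higher and 3 lower (median 0.27), led by Tnfrsf9 (1.63 ± 0.14), Tnfrsf1b (1.06 ± 0.10) and Tnfrsf4 (0.97 ± 0.08), costimulatory receptors or receptors of TNF itself. Of 15 TNF superfamily ligands 7 were higher, Tnfsf8 (0.76) most, and 1 was lower, Tnfsf10 (-0.64).

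Inside the cell, 11 of 21 Jak, Stat and Socs genes were higher and 2 lower (median 0.16). Cish, a cytokine-induced suppressor, rose by 0.84 ± 0.06 (adjusted p = 4.8e-07), Stat4 by 0.65 and Socs3 by 0.62. The 2 that fell did so by small amounts, Socs5 (-0.20) and Pias1 (-0.16), and the count of lower genes was 4 without isotype mouse 2-2 and 1 without isotype mouse 1 or 1-2 or saline mouse 1-2. Of 36 transcription factors of leukocyte lineages 24 were higher and 6 lower (median 0.42). Irf4 read 67.4, 60.3 and 68.6 against 369, 255 and 263, and 230, 207 and 215 against 860 and 1081 (2.15 ± 0.10, adjusted p = 1.6e-08), without overlap. Spi1, which encodes PU.1 of myeloid and B cells, rose by 1.22 ± 0.08, and Cebpe, needed for granulocyte maturation, by 1.13 ± 0.20. The 6 that fell included Gata2 of mast cells and progenitors (-0.68), Rora (-0.44), Lef1 (-0.43) and the B cell factor gene Ebf1 (-0.37).

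**Figure D4:**
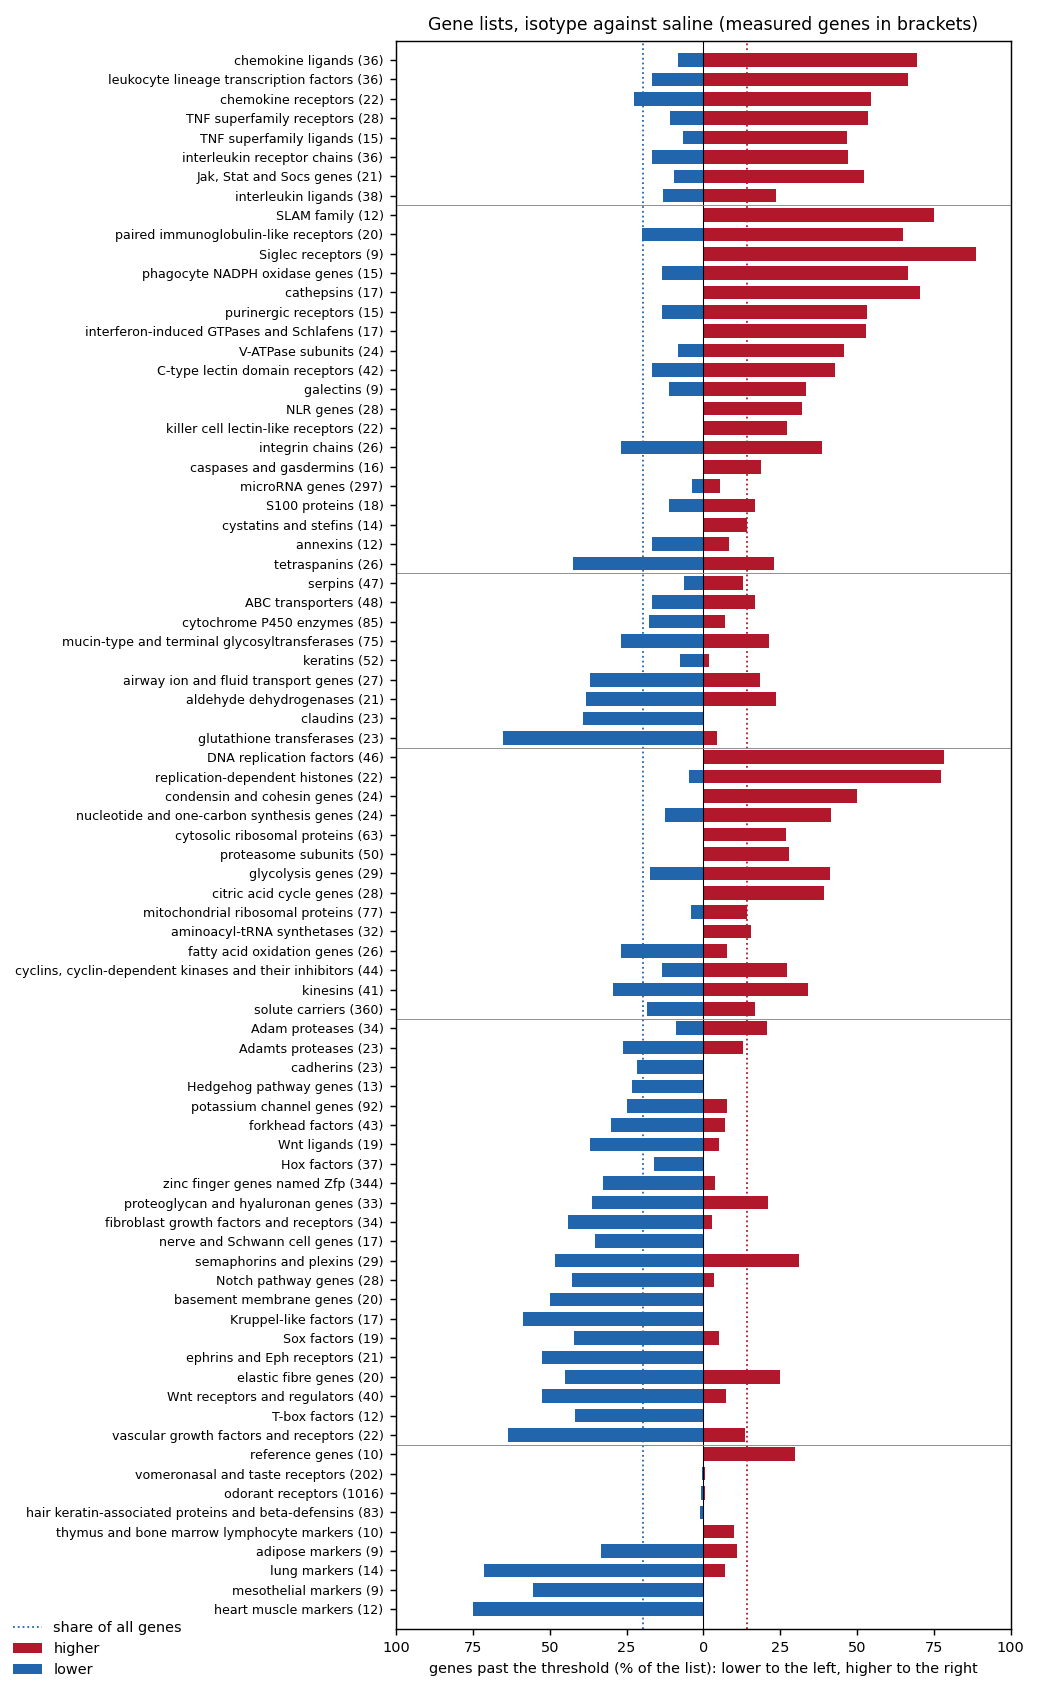
Each row is a gene family or marker list with its number of measured genes, and bars show the share of its genes that were lower (blue, to the left) or higher (red, to the right) at an adjusted p under 0.05; dotted lines mark the shares among all genes, 19.6% and 14.1%. Most signal and leukocyte families and genes of DNA replication extend to the right, and most growth factor, developmental and vessel families to the left.

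Surface receptors of myeloid cells and lymphocytes held many genes that rose. In whole lung RNA more cells of a type and more RNA per cell cannot be told apart. Of 9 Siglec receptors, which bind sialic acid, 8 were higher and 0 lower (median 0.67). Siglec1, of resident and monocyte-derived macrophages, read 114, 143 and 162 against 266, 368 and 288, and 422, 424 and 372 against 1075 and 1075 (1.26 ± 0.11). Siglecf, of mouse eosinophils and alveolar macrophages, rose by 0.80 ± 0.10, Cd33 by 0.74 ± 0.08 and the B cell gene Cd22 by 0.67. Of 12 genes of the SLAM family 9 were higher and 0 lower (median 0.89). Slamf8 read 50.7, 65.3 and 76.0 against 202, 241 and 156, and 173, 165 and 155 against 714 and 752 (1.87 ± 0.14, adjusted p = 6.1e-07). Cd84, Ly9 and Cd48, adhesion and signalling receptors between leukocytes, rose by 1.65, 1.29 and 1.24. The groups did not overlap in these 4 SLAM genes.

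Paired immunoglobulin-like receptors were mixed in sign, with 13 of 20 higher and 4 lower (median 0.71). Lilr4b read 308, 359 and 298 against 1795, 1800 and 1294, and 872, 777 and 1050 against 3884 and 3948 (2.24 ± 0.10), and Trem2, a lipid-sensing receptor of macrophages, rose by 2.14 ± 0.15. Lower were Cd300e of patrolling monocytes (-0.50), the platelet gene Treml1 (-0.41), Treml4 (-0.38) and Cd300lg (-0.23). C-type lectin domain receptors showed the same kind of split, with 18 of 42 higher and 7 lower (median 0.17). Cd209e read 29.1, 36.5 and 44.4 against 114, 121 and 91.8, and 149, 134 and 123 against 1367 and 898 (2.23 ± 0.24). The cluster members Clec4a1, Clec4a2 and Clec4a3 rose by 2.21, 2.15 and 2.08. Those that fell included Clec14a (-1.12 ± 0.12) and Clec1a (-0.84 ± 0.10) of endothelium and Clec1b of platelets (-0.70). Of 22 killer cell lectin-like receptors 6 were higher and 0 lower (median 0.05), with Klrb1a (0.92), Klrb1f (0.90) and Klrg1 (0.89) highest.

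Integrin chains went both ways, with 10 of 26 higher and 7 lower (median 0.03). Itgam, the CD11b chain of myeloid cells, read 245, 184 and 220 against 1301, 1257 and 982, and 391, 397 and 409 against 2138 and 2695 (2.51 ± 0.10, adjusted p = 4.2e-09). Itgb2, the beta chain that pairs with it, rose by 1.22 ± 0.07 and Itga4 by 0.75. Itga8 of alveolar fibroblasts and smooth muscle (-1.01 ± 0.13), Itga1 (-0.55), Itga3 of epithelium (-0.47) and Itga2b of platelets (-0.47) fell. Itga7 of muscle (0.47) and Itga5 (0.36), named after their values were seen, were higher. Tetraspanins also went both ways, 6 of 26 higher and 11 lower (median -0.11), with Cd53 (1.07) and Cd37 (0.90) of leukocytes higher and Tspan12 (-0.86) and Tspan18 (-0.73) of endothelium lower. Of 15 purinergic receptors, which sense extracellular nucleotides, 8 were higher and 2 lower, with P2ry6 at 1.45 ± 0.08, and 1 was lower when any single mouse other than isotype mouse 2 or 1-2 or saline mouse 3-2 was left out.

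Effector systems of phagocytes were higher too. Of 15 phagocyte NADPH oxidase genes 10 were higher and 2 lower (median 0.57). Ncf1, the p47 subunit, read 536, 584 and 601 against 1775, 1696 and 1396, and 1005, 951 and 955 against 3371 and 3846 (1.67 ± 0.09, adjusted p = 5.4e-08). The 2 that fell, Nox1 (-0.96) and Nox4 (-0.75), are the catalytic chains of non-phagocytic oxidases, and 4 were lower without isotype mouse 1-2. Of 17 cathepsins, the proteases of lysosomes, 12 were higher and 0 lower (median 0.52). Ctsk read 148, 222 and 231 against 1378, 1302 and 866, and 731, 581 and 689 against 4616 and 3601 (2.58 ± 0.14), and Ctss rose by 1.64 ± 0.09. Of 24 subunits of the V-ATPase, which acidifies lysosomes, 11 were higher and 2 lower (median 0.18), Atp6v0d2 of macrophages most (1.24 ± 0.12), and 1 was lower without saline mouse 1, 1-2 or 3-2 or isotype mouse 2-2.

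Innate sensors rose in part. Of 28 NLR genes 9 were higher and 0 lower (median 0.10), with Naip5 at 1.30 ± 0.10, Naip2 at 1.29 and the DNA sensor gene Aim2, grouped with them, at 1.03. Of 16 caspases and gasdermins only Casp1 (0.86), Casp4 (0.67) and Gsdmd (0.32), the inflammasome caspases and their pore-forming substrate, were past the threshold. Of 17 interferon-induced GTPases and Schlafens 9 were higher and 0 lower (median 0.33), led by the Schlafens Slfn9 (1.84 ± 0.17) and Slfn8 (1.27 ± 0.11). By the difference within experiment 1, 3 were higher. Of 18 S100 proteins 3 were higher (16.7%) and 2 lower (11.1%), near or below the shares of all genes (median -0.02). S100a4 rose most (1.28 ± 0.08), and 1 was higher without saline mouse 1. Of 9 galectins 3 were higher and 1 lower: Lgals3 (1.34 ± 0.10), Lgals1 (0.89) and Lgals3bp (0.52) rose and Lgals2 (-0.79) fell. Annexins stayed near the background, with 1 of 12 higher (Anxa4, 0.32) and 2 lower (Anxa11, -0.38, and Anxa5, -0.23), and 2 higher without saline mouse 2. The cystatin gene Cst7, an inhibitor of lysosomal proteases in leukocytes, rose by 1.43 ± 0.17.

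Genes of DNA synthesis rose almost as a body. Of 46 DNA replication factors 36 were higher and 0 lower (median 0.62), and 32 were higher without overlap. Rrm2, the small subunit of ribonucleotide reductase, read 95.1, 109 and 129 against 398, 369 and 319, and 307, 314 and 353 against 1496 and 1846 (2.00 ± 0.13, adjusted p = 2.3e-07). The catalytic subunit gene of polymerase epsilon, Pole, rose by 1.59 ± 0.16, the helicase subunit gene Mcm6 by 1.38 ± 0.13 and the GINS complex gene Gins1 by 1.27 ± 0.10. The helicase genes Mcm2 to Mcm7 all rose, by 0.55 to 1.38. Of the subunits of the origin recognition complex Orc1 (0.61) and Orc6 (0.25) rose, whereas Orc2, Orc3, Orc4 and Orc5 lay between -0.09 and 0.04 and did not pass. Of 22 replication-dependent histones 17 were higher and 1 lower (median 0.47), with H2ac4 at 2.09 ± 0.14, and 2 were lower without isotype mouse 2-2. Sequences of histone genes are alike, so their probe sets may share signal.

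Promoters of the replication factors are shown because motif matches of the type bound by E2F, the transcription factor family of S phase genes, were frequent among them. The letters TTTGGCGC, TTTCCCGC, TTTCGCGC and TTTGCCGC were searched on both strands in the same windows of 250 bases, and matches may overlap. They were found in 2.47% of all 19018 windows, in 11 of 48 windows (22.9%) of replication factors and in 8 of 34 windows (23.5%) of those that rose. The genes with a match among those that rose were Cdc6, Gins3, Mcm5, Mcm6, Mcm7, Orc1, Pola1 and Rfc3, named because they hold a match. Capitals mark the matches, and sequences are from RefSeq (GRCm38.p6). They lie at chr1:128359706-128359855 on the minus strand for Mcm6, chr8:75109316-75109407 on the plus strand for Mcm5, chr5:138172001-138172088 on the minus strand for Mcm7, chr11:98907973-98908060 on the plus strand for Cdc6 and chr4:108579387-108579453 on the plus strand for Orc1.
Mcm6: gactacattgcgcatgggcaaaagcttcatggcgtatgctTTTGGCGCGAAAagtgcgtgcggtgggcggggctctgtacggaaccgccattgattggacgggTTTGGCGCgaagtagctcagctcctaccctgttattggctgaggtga
Mcm5: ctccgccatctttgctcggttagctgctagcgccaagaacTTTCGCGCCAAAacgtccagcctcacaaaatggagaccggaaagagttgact
Mcm7: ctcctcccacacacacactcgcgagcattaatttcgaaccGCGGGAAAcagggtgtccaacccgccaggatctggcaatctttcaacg
Cdc6: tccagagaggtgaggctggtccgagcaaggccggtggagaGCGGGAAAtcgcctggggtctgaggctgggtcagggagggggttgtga
Orc1: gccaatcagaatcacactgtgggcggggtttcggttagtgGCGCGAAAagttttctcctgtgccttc
Mcm6 holds 3 matches, of which the first overlaps with another read on the opposite strand. The CCAAT box, searched by its letters CCAAT on both strands, was in 34.6% of all windows and in 55.9% of those of replication factors that rose. A match shows only that the letters are present.

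Mitotic genes showed the same direction within families that hold other functions too. Of 41 kinesins 14 were higher and 12 lower (median -0.02). Kif11, the motor that separates spindle poles, read 46.1, 71.4 and 79.3 against 318, 304 and 242, and 177, 217 and 214 against 1060 and 1298 (2.33 ± 0.14, adjusted p = 1.5e-07), and the mitotic motors Kif2c (2.26), Kif20a (2.06) and Kif15 (1.97) rose alike. Kif27, a kinesin of cilia (-0.41), Kifc3 (-0.40), the axonal Kif21a (-0.39) and Kifc2 (-0.35) fell. Of 24 condensin and cohesin genes 12 were higher and 0 lower (median 0.26), led by the condensin genes Ncapg (2.34 ± 0.19) and Ncapg2 (1.65 ± 0.13). Of 44 cyclins, cyclin-dependent kinases and inhibitors 12 were higher and 6 lower (median 0.00). The cyclins of S phase and mitosis, Ccna2 (2.31 ± 0.21) and Ccnb2 (1.92 ± 0.14), and Cdk1 (1.84 ± 0.17) rose. The G1 cyclins Ccnd1 (-0.41 ± 0.06) and Ccnd2 (-0.55 ± 0.05) and the inhibitor gene Cdkn2b (-0.61) fell.

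Metabolic families changed in part. Of 24 nucleotide and one-carbon synthesis genes 10 were higher and 3 lower (median 0.16), Mthfd2 of the mitochondrial folate pathway most (1.22 ± 0.13). Of 29 glycolysis genes 12 were higher and 5 lower (median 0.11), with the hexokinase genes Hk3 (1.00) and Hk2 (0.79), Pgk1 (0.83) and the lactate exporter gene Slc16a3 (0.61) higher and the pyruvate dehydrogenase kinase genes Pdk2 (-0.50) and Pdk1 (-0.43) lower. Of 28 citric acid cycle genes 11 were higher and 0 lower (median 0.11). Acod1, which diverts the cycle to itaconate in activated macrophages, read 61.6, 53.2 and 50.7 against 138, 248 and 86.9, and 154, 177 and 141 against 1252 and 2010 (2.26 ± 0.35, adjusted p = 0.00026), without overlap and with the higher values in experiment 2. Of 50 proteasome subunits 14 were higher and 0 lower (median 0.12), Psmb8 of the immunoproteasome most (0.69 ± 0.08). Of 63 cytosolic ribosomal proteins 17 were higher and 0 lower, by at most 0.46 (Rpsa). That count was 7 without saline mouse 2, 8 without saline mouse 2-2, 10 without saline mouse 3 or isotype mouse 1, 11 without isotype mouse 2 and 11 after centring each array on its median.

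Transporters and fluid genes of the airway went both ways. Of 27 genes of airway ion and fluid transport 5 were higher and 10 lower (median -0.08). Beside Clca1 and Slc26a4, the potassium channel gene Kcnn4 rose by 1.20 ± 0.11. The sodium channel subunit gene Scnn1b fell by 0.98 ± 0.08 on the log2 scale, and the water channel genes Aqp5, Aqp4 and Aqp1 by 0.64, 0.62 and 0.60. Of 360 solute carriers 60 were higher (16.7%) and 66 lower (18.3%), close to the shares among all genes. Those that rose most after Slc26a4 were the cystine carrier gene Slc7a11 (2.85 ± 0.18), Slc7a8 (2.15 ± 0.13) and the glucose carrier gene Slc5a1 (1.90 ± 0.11), and those that fell most were Slc7a10 (-1.11 ± 0.17) and Slc38a4 (-0.95 ± 0.08). Of 75 mucin-type and terminal glycosyltransferases 16 were higher and 20 lower (median -0.05), with the initiating enzyme genes Galnt6 (1.16 ± 0.12) and Galnt7 (1.14 ± 0.09) and the branching enzyme gene Gcnt1 (1.10 ± 0.14) highest.

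Detoxifying glutathione transferases and junction genes of the epithelium held more genes that fell than rose. Of 23 glutathione transferases 15 were lower (median -0.33) and 1 was higher, Gsto1, whose call was lost when any of 7 single mice was left out. Gsta3 read 596, 475 and 518 in saline mice against 219, 262 and 252 in isotype mice, and 1331, 1194 and 1286 against 451 and 527 (-1.23 ± 0.08, adjusted p = 3.3e-07), and Gstm1 fell by 1.00 ± 0.08 on the log2 scale. The groups did not overlap in 14 of the 15 genes. Of 23 claudins, the sealing proteins of tight junctions, 9 were lower and 0 higher (median -0.10). Cldn8 read 179, 140 and 152 against 84.9, 80.8 and 86.3, and 597, 548 and 559 against 208 and 209 (-1.14 ± 0.10), and Cldn18 of alveolar epithelium fell by 0.44 ± 0.05 on the log2 scale.

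Other families held genes that rose and genes that fell. Of 85 cytochrome P450 enzymes 6 were higher (7.06%) and 15 lower (17.6%), with a median of -0.05. Both shares lay below those of all genes (14.1% and 19.6%). Cyp4f18, a leukotriene-degrading enzyme of myeloid cells, rose by 2.47 ± 0.19 and the oxysterol hydroxylase gene Cyp7b1 by 1.76 ± 0.13, while Cyp4b1 (-1.04 ± 0.08) and Cyp2s1 (-1.01 ± 0.10), found in airway epithelium, fell. Of 21 aldehyde dehydrogenases 5 were higher (23.8%) and 8 lower (38.1%), with Aldh1a3 at 0.84 and Aldh1a1 at -0.68. Of 48 ABC transporters 8 were higher (16.7%), Abcd2 most (1.20 ± 0.08), and 8 lower (16.7%), Abca8a most (-1.16 ± 0.15). These shares lay near those of all genes. Of 47 serpins 6 were higher (12.8%) and 3 lower (6.38%), both below the shares of all genes. Serpinb2 (3.39 ± 0.12) and Serpina3n (2.40 ± 0.11) stood far above the rest, whose rises were at most 0.34. Without isotype mouse 1 or 1-2, 1 serpin was lower. Of 52 keratins 1 was higher (1.92%, Krt79 at 0.81) and 4 were lower (7.69%), also below those shares. Among the lower were Krt19 (-0.58) and Krt7 (-0.42) of simple epithelium, and 11 keratins were lower without isotype mouse 1-2.

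Few microRNA genes were called. The array reads a probe set over the precursor transcript, not the mature microRNA. Of 297 microRNA genes, 3 of them host transcripts, 16 were higher and 11 lower, shares of 5.39% and 3.7%. With saline mouse 3 left out 10 were higher, and with isotype mouse 2-2 left out 7 were lower. Calls were also rare in the dimmest class of all genes (2.66% higher and 2% lower). MicroRNA genes were not compared with other genes of like level. Mir142, a precursor of blood cells, read 68.4, 59.3 and 46.3 against 76.5, 110 and 93.9, and 248, 181 and 322 against 565 and 517 (0.89 ± 0.16, adjusted p = 0.00076). Mature sequences of the precursors that share a seed (bases 2 to 8, in capitals, which pair with targets), and of the precursor with the largest difference, are printed to show which changed precursors carry the same targeting letters. They are from RefSeq (GRCm38.p6).
miR-142a-3p: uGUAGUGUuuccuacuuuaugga
miR-142a-5p: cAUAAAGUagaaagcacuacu
miR-15a-5p: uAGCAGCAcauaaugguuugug
miR-15b-5p: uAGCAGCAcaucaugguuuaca
miR-16-5p: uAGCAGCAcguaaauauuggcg
miR-497a-5p: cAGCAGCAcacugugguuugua
miR-34a-5p: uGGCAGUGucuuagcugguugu
miR-449c-5p: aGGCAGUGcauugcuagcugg
miR-200a-5p: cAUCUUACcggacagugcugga
miR-200b-5p: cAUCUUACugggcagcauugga
Of the 4 precursors with the seed AGCAGCA, Mir15a (0.46 ± 0.10), Mir15b (0.41) and Mir16-1 (0.34 ± 0.07) were higher and Mir497 (-0.38 ± 0.13) was lower, so precursors with this seed went both ways. Mir15a and Mir16-1 lie next to each other, their mature sequences at chr14:61632075-61632096 and chr14:61631936-61631957 on the minus strand. Of the seed GGCAGUG, Mir34a (0.50 ± 0.09) and Mir449c (0.37 ± 0.09) were both higher. Of the seed AUCUUAC, Mir200a (-0.23 ± 0.07) and Mir200b (-0.41 ± 0.10), neighbours on chromosome 4 and known from epithelium, were both lower.

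Growth factor pathways of the resident tissue held more genes that fell than rose. Of 40 Wnt receptors and regulators 21 were lower and 3 higher (median -0.26), and of 19 Wnt ligands 7 were lower and 1 higher (median -0.12). The Wnt inhibitor gene Wif1 fell by 0.88 ± 0.10 on the log2 scale and Notum, which inactivates Wnt ligands, by 0.70 ± 0.07. Sfrp1, a secreted Wnt antagonist, went the other way: it read 310, 286 and 317 against 619, 738 and 508, and 750, 667 and 704 against 2305 and 1863 (1.25 ± 0.12, adjusted p = 5.3e-06). Among ligands Wnt7a (-0.71), Wnt2b (-0.68) and Wnt10b (-0.65) were lower and Wnt5a was higher (0.40 ± 0.08).

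Of 28 Notch pathway genes 12 were lower and 1 higher (median -0.17). The targets Hey2 (-0.89 ± 0.13), Hey1 (-0.86 ± 0.07) and Heyl (-0.70 ± 0.08) and the endothelial ligand gene Dll4 (-0.74 ± 0.08) fell, while Rbpj, the DNA-binding partner of Notch, rose (0.55 ± 0.06). Of 34 fibroblast growth factors, receptors and regulators 15 were lower and 1 higher (median -0.14), with Fgf1 (-0.95), Fgf7 (-0.90), the feedback inhibitor gene Spry1 (-0.76) and Fgfr4 (-0.71) lowest. Of 13 Hedgehog pathway genes 3 were lower, Boc (-0.51), the receptor gene Ptch1 (-0.44) and Smo (-0.28), and 0 were higher. The lower share of Hedgehog genes, 23.1%, was near the 19.6% of all genes.

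Genes of vessel growth showed the same direction. Of 22 vascular growth factors and receptors 14 were lower and 3 higher (median -0.51). Tek, the endothelial receptor of angiopoietins, read 3171, 3036 and 2993 in saline mice against 1506, 1827 and 2065 in isotype mice, and 6295, 5945 and 5639 against 2702 and 3147 (-0.89 ± 0.09, adjusted p = 6e-06), without overlap. Its ligand gene Angpt1 (-0.90 ± 0.15), the VEGF receptor gene Kdr (-0.73 ± 0.08) and Pdgfd (-0.92 ± 0.11) fell too. The growth factor gene Pdgfc rose by 1.63 ± 0.10 and Pgf by 0.68 ± 0.08. Of 21 ephrins and Eph receptors, guidance molecules of arteries and veins among other tissues, 11 were lower and 0 higher (median -0.22), with the arterial ligand gene Efnb2 at -0.86 ± 0.09. Of 29 semaphorins and plexins 14 were lower and 9 higher, those of leukocytes such as Plxnc1 (0.96), Sema4d (0.87) and Sema4a (0.76) higher and Sema3c (-0.81) and Sema3b (-0.76) lower. Of 23 cadherins 5 were lower and 0 higher, Cdh13 most (-1.37 ± 0.14, adjusted p = 1.2e-05). The lower share of cadherins, 21.7%, was near the 19.6% of all genes.

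Among developmental transcription factors, Kruppel-like (58.8%), Sox (42.1%), T-box (41.7%) and forkhead factors (30.2%) were lower more often than all genes (19.6%). Hox factors, at 16.2% lower, were not. Of 17 Kruppel-like factors 10 were lower and 0 higher (median -0.20), Klf15 most (-0.60 ± 0.07), and Klf2, which endothelium expresses under flow, was at -0.45 ± 0.08. Of 12 T-box factors 5 were lower and 0 higher (median -0.30): Tbx3 (-0.76 ± 0.08), Tbx2 (-0.61), Tbx4 (-0.47), Tbx5 (-0.43) and Tbx1 (-0.35), and 8 were lower without isotype mouse 1-2. Of 37 Hox factors 6 were lower, Hoxb5 most (-0.94 ± 0.10), and 10 without isotype mouse 1-2. Of 19 Sox factors 8 were lower, among them the endothelial Sox7 (-0.69), Sox18 (-0.64) and Sox17 (-0.41), and Sox9 was higher (0.52). Of 43 forkhead factors 13 were lower, among them Foxf2 (-0.67), Foxa1 (-0.62) and Foxf1 (-0.56), and 3 higher: Foxm1 of dividing cells (1.44 ± 0.14), Foxp3 of regulatory T cells (0.77 ± 0.08) and Foxa3 of goblet cells (0.32 ± 0.09).

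Zinc finger genes named Zfp fell by small amounts where they fell. Of 344 such genes 112 were lower (32.6%) and 13 higher (3.78%), with a median of -0.13. The largest fall was that of Zfp37 (-0.63 ± 0.08) and the largest rise that of Zfp985 (1.15 ± 0.17). By the difference within experiment 1, 26 genes of the family were lower. The mean over the family was -0.15, -0.09 and -0.04 in isotype mice 1, 2 and 3 and -0.22 and -0.12 in isotype mice 1-2 and 2-2, against -0.05 to 0.03 in saline mice.

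**Figure D5:**
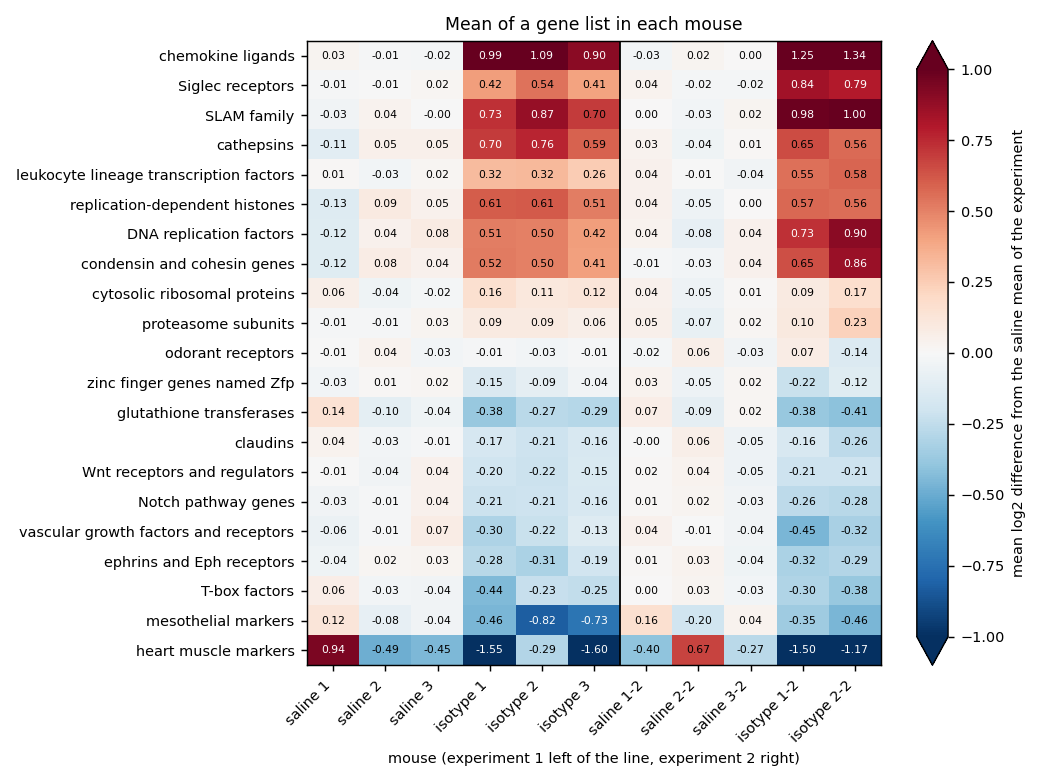
Each cell gives the mean log2 difference of a gene family (row) in 1 mouse (column) from the saline mean of its experiment, with experiment 1 left of the line and experiment 2 right of it; colours saturate at -1 and 1. Saline mice average 0 in each experiment by construction. Among the rows shown they spread most for heart muscle markers, where saline mouse 1 is at 0.94 and isotype mouse 2 at -0.29. Mesothelial markers run from -0.20 to 0.16 in saline mice.

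Matrix genes were mixed. Of 20 basement membrane genes 10 were lower and 0 higher (median -0.20), Lama2 (-0.50 ± 0.11) and the collagen IV chain gene Col4a5 (-0.47 ± 0.08) most. By the difference within experiment 1, 4 were lower. Of 20 elastic fibre genes 9 were lower and 5 higher. Fbln5 (-0.59) and Efemp1 (-0.58), scaffold proteins of elastic fibres, fell with Ltbp4, while Emilin2 (1.28 ± 0.10), fibronectin (Fn1, 1.01 ± 0.09) and the crosslinking enzyme gene Lox (0.81 ± 0.11) rose. Of 33 proteoglycan and hyaluronan genes 12 were lower and 7 higher. Versican (Vcan) rose by 1.85 ± 0.19 and the hyaluronan receptor gene Cd44 by 0.59 ± 0.07, and the small proteoglycan genes Omd (-0.93), Lum (-0.72) and Aspn (-0.67) fell. Of 34 Adam proteases 7 were higher and 3 lower, with Adam8 of leukocytes at 2.43 ± 0.13 and the next rise at 0.45. Of 23 Adamts proteases 3 were higher (13%) and 6 lower (26.1%), Adamtsl5 most (-0.60 ± 0.06), and 5 were higher without isotype mouse 1-2. Of 92 potassium channel genes 7 were higher and 23 lower, with Kcnj13 at -0.99 ± 0.07. Of 17 nerve and Schwann cell genes 6 were lower, Gap43 of axons most (-0.53 ± 0.08), and 0 higher.

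Markers of lung cell types and of neighbouring tissues were counted in the same way. For these markers and the tissue families above, fewer cells of a type and less RNA per cell cannot be told apart. Of 14 lung markers 10 were lower and 1 higher (median -0.33). The secreted collectin gene Sftpd rose by 0.52 ± 0.07. Sftpc (-0.08) and Sftpa1 (0.03) did not pass, Sftpb fell by 0.30 ± 0.05 on the log2 scale, and the fibroblast factor gene Tcf21 by 0.77 ± 0.11. Of 9 mesothelial markers 5 were lower and 0 higher (median -0.58), Upk3b most, at 1384, 1027 and 1041 against 566, 326 and 366 and at 3312, 2128 and 3023 against 1288 and 1151 (-1.35 ± 0.16), without overlap. Of 9 adipose markers 3 were lower and 1 higher, of 5 erythroid markers 3 were lower, and of 10 markers of thymus and bone marrow lymphocytes 1 was higher. These small counts moved with single mice: 1 erythroid marker was lower without saline mouse 2, 1-2, 2-2 or 3-2 or isotype mouse 1, and 0 without isotype mouse 2-2. The thymus count was 0 without isotype mouse 2-2, and the adipose marker that rose was past the threshold only with saline mice 2, 3, 1-2 and 3-2 and isotype mice 1, 2 and 2-2 all in the fit. The part of these tissues in other falls was not tested.

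Receptors for odours, pheromones and taste, and keratin-associated proteins and beta-defensins, were seldom called. Of 1016 odorant receptors 4 were higher (0.394%) and 7 lower (0.689%), of 202 vomeronasal and taste receptors 1 and 1, and of 83 hair keratin-associated proteins and beta-defensins 0 and 1. Without isotype mouse 1-2, 37 odorant receptors, 6 keratin-associated proteins and defensins and 5 vomeronasal and taste receptors were lower. Without isotype mouse 2-2, 12 odorant and 4 vomeronasal and taste receptors were higher. The count of lower odorant receptors was 11 without saline mouse 1 and 3 without saline mouse 2 or 2-2 or isotype mouse 2-2. Olfr111 on chromosome 17 stood out among them, with 19.3 to 21.1 in saline mice against 44.5 in the lowest isotype mouse of experiment 1, and 49.3, 46.7 and 54.3 against 160 and 202 (1.62 ± 0.11, adjusted p = 3.2e-07), and its neighbour in name Olfr110 rose by 0.69 ± 0.14. All other odorant receptors that rose did so by at most 0.42.

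Genes often used as references were not all level. Of 10 such genes 7 did not pass, from -0.08 (Ywhaz) to 0.11 (B2m), with Actb at 0.05 ± 0.04 and Hprt at 0.09 ± 0.06. Gusb, a lysosomal enzyme, read 329, 363 and 383 against 802, 793 and 651, and 742, 722 and 669 against 1646 and 1623 (1.12 ± 0.07, adjusted p = 1.7e-07). The transferrin receptor gene Tfrc rose by 0.99 ± 0.09 and the ribosomal gene Rplp0 by 0.36 ± 0.05. In these 3 genes every isotype mouse exceeded every saline mouse of its experiment.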

How the data were processed

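Each deposited table gives intensity per probe set on a linear scale; the authors used RMA, per the submitters' processing notes, of a version not given in these sources. Values were turned to log2 before the fit. Of 24679 probe sets the 21354 with 1 gene symbol were used, and the brightest probe set of each of 893 genes with several was kept. A linear model with group and experiment was fitted to the 11 arrays with limma 3.58.1 in R 4.3.3 (eBayes, 2-sided), and p was adjusted by Benjamini-Hochberg over all 19751 genes. The fit was tested on simulated data. A second model of the same 11 arrays, with the spread pooled over both experiments, gave each experiment's difference and their interaction. The number of arrays limits the precision.

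The 83 gene lists were chosen with earlier results of these data known, and support nothing on their own. Named genes were the 20 largest rises and falls, up to 4 members each way per list, all members of lists of 12 or fewer, and the 6 largest interactions. Mouse intensities are given for leading genes. Families were compared with all genes by counts and medians, without a test of the list. Alternatives were other normalizations and filters, other sets of arrays and leaving out each mouse.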

Additional observations from a re-analysis of the deposited data

Results flagged for a closer look

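In 31 of 1284 groups of 5 or 6 mice (2.41%) 1 mouse stood apart from the others by Dixon's test. Values are log2 differences from the saline mean of the mouse's experiment. They are therefore not independent draws, and the rate of about 1 in 20 that holds for such draws does not apply. Isotype mouse 1 was at 6.366 for Jchain, against 2.274 to 3.175 in the others. Isotype mouse 2 was at -0.5651 for Myl7 and 2.622 for Ccr2. Isotype mouse 3 was at 0.3644 for Siglecf, 1.4 for Cd84, 0.1629 for Anxa4, -0.5778 for Chst3, -0.3461 for Foxf1 and 0.8645 for Gusb, and at 0.1391 for the mean of V-ATPase subunits and -0.1546 for that of Wnt receptors and regulators. Isotype mouse 1-2 was at -0.3271 for Socs5, -0.7752 for Hoxb2, -0.9401 for Lama2, 0.6285 for Zfp991, -0.9428 for Zfp37, 0.3612 for Dntt and -0.0534 for Ppia. Isotype mouse 2-2 was at -0.3856 for Anxa5, 1.103 for Mir350, 2.372 for Cyp7b1, -0.6163 for Tbx15, 1.748 for Emilin2, -1.023 for Mfap2 and -0.3202 for Klf1. Its means were 0.3312 for integrin chains, 0.2083 for aminoacyl-tRNA synthetases and 0.2291 for proteasome subunits. Among saline mice, mouse 1 was at -0.1457 for Sh2d1b2, mouse 1-2 at 0.09756 for Tbx18 and mouse 2 at 0.06341 for Uty.

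The difference between isotype and saline mice depended on the experiment, by the limma interaction, in 13 of the named genes. Experiment 2 minus experiment 1 was 3.468 for Mcpt2, 2.977 for Mcpt1, 2.228 for Ccl7, 1.966 for Ocstamp, 1.925 for Ccl2, 1.617 for 9830107B12Rik, 1.191 for Cebpe, 1.116 for Cst7, 0.8083 for Siglecg, 0.7722 for Socs1, -0.6526 for Krt23, -1.477 for Rnase2a and -1.574 for Retnla.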

How the results depend on the processing

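The counts of 2791 higher and 3862 lower genes were 2878 and 4156 when all 17 arrays shared the fit, 2495 and 4669 after centring each array on its median (34.8% of calls higher, against 42%), 2984 and 4205 after quantile normalization across experiments, 2811 and 3823 with 64 added before the log2, and 2844 and 3884 with a trended robust eBayes. Leaving out 1 mouse at a time gave 2512 to 2792 higher and 3328 to 3841 lower genes. Experiment 1 alone gave 1655 higher and 1978 lower genes. Without a term for the experiment 33 genes were higher and 1 lower (445 at unadjusted p under 0.05), and S100a10 and Sars2, which were past the threshold above 0, were at -0.024 and -0.024; the arrays of the 2 experiments differ in level, as their medians show, and that difference then counts as spread. The count of 58 interactions ranged from 25 to 361 over mice left out. Residuals of same-numbered mice correlated at -0.226 to 0.067. With so few mice per group these residuals are not independent, so the values cannot settle whether mouse numbers pair the samples. With the replicate number as a block 2243 genes were higher and 3029 lower. Few arrays and a dim end of the array, where 2.66% and 2% of genes were called, limit what could be detected.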
